A study of Homo sapiens with 6 samples.

Results

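The genes described here are 10 components of the Wnt pathway, measured by total RNA sequencing of MDA-MB-231 cells, an established human triple-negative breast cancer line. They are the ligands WNT5A and WNT5B, the receptors FZD2 and FZD7, the co-receptors LRP5 and LRP6, the extracellular and membrane inhibitors DKK1 and APCDD1 with the APCDD1 paralog APCDD1L, and AXIN2. They were taken by symbol from the 58174 gene IDs of the deposited table, with earlier results of the same table known, so their values below are a description and carry no test. The labels give 3 groups of 2 samples each: KO1 and KO2, both labelled as ARID1A knockout, and NC, labelled as control, all in the same cell line and with no other treatment named. They do not say how the knockouts were made, or whether KO1 and KO2 are single clones. ARID1A is a component of BAF, a complex that moves nucleosomes and binds DNA.

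The table holds 1 column of estimated counts per group, which may stand for 1 library or for both samples combined. Replicate spread is therefore unknown throughout, and the 95% intervals in brackets reflect counting error alone. Total estimated counts were 25801499 in KO1, 26144758 in KO2 and 26798753 in NC, and the share of counts from mitochondrially encoded genes was 20.5% in KO1, 16.9% in KO2 and 12.8% in NC. ARID1A itself was at 45.5 CPM (counts per library size, with TMM factors) in the column labelled KO1, 83.9 CPM in the column labelled KO2 and 77.5 CPM in NC, so its RNA was lower than in NC only in the column labelled KO1. The line's own markers VIM, CD44, EGFR and KRT18 were above 0 in every column, while PGR had 0 counts in every column and ESR1 had 14 counts in KO2 and 0 in KO1 and NC. In KO1, KO2 and NC, EGFR was at 427, 317 and 152 CPM and KRT18 at 355, 207 and 142 CPM. VIM was at 4695, 2924 and 3422 CPM and CD44 at 728, 664 and 766 CPM in the same order. Of 5 leukocyte markers, 4 in KO1, 2 in KO2 and 4 in NC were at 0 counts, and their summed level was 1.30 CPM in KO1, 5.997 CPM in KO2 and 5.84 CPM in NC, nearly all of it CD14. Of 4 endothelial markers, 2 in KO1, 1 in KO2 and 1 in NC were at 0 counts, with summed levels of 3.24, 7.82 and 4.30 CPM in KO1, KO2 and NC. Of 5 luminal breast markers, 2 in KO1, 1 in KO2 and 3 in NC were at 0 counts, with summed levels of 661 CPM in KO1, 577 CPM in KO2 and 445 CPM in NC, nearly all of it KRT8. Among them FOXA1 had 47 counts in KO1, 30 in KO2 and 0 in NC. GATA3 was at 15.3 CPM in KO1, 15.6 CPM in KO2 and 8.96 CPM in NC. The part of these marker differences in the results was not tested.

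Wnt proteins are secreted lipid-modified ligands that bind Frizzled receptors on neighbouring cells. In the canonical branch a Frizzled acts together with LRP5 or LRP6, the destruction complex built on AXIN proteins is inhibited, and beta-catenin accumulates and acts with TCF and LEF factors in the nucleus. WNT5A and WNT5B act mainly through beta-catenin-independent branches that govern cell polarity and movement, and WNT5A is studied in breast cancer for its part in motility and invasion. DKK1 is a secreted inhibitor that binds LRP5 and LRP6 and removes them from signalling with the help of KREMEN proteins.

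The regions before 3 of the genes are shown, chosen for the 3 patterns described below. DKK1 had the highest TPM in all columns and LRP5 was past the size limit below NC in KO1 alone. WNT5A was low in both knockout columns. The WNT5A window shown precedes an inner start, not that of ENST00000264634, the transcript with nearly all WNT5A counts. RefSeq promoter windows (GRCh38.p14) were matched for 5 of the 10 genes, WNT5A, WNT5B, DKK1, LRP5 and APCDD1, with 7 windows in all. Each sequence is the 250 bases before a RefSeq start, 5′ to 3′ on the gene's strand, and capitals mark a match to CTTTGAA or CTTTGAT or CTTTGTA or CTTTGTT on either strand, letters bound by TCF and LEF factors.
DKK1, chr10:52314031-52314280, plus strand: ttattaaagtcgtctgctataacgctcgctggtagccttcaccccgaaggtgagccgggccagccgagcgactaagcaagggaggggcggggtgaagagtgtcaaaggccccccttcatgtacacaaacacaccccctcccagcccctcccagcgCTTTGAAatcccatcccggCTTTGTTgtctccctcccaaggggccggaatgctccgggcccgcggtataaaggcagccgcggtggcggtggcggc
LRP5, chr11:68312341-68312590, plus strand: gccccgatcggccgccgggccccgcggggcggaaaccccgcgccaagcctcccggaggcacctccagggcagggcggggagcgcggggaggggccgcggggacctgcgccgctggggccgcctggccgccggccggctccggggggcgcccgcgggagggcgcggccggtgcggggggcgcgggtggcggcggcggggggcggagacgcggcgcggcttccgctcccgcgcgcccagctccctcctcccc
WNT5A, inner start, chr3:55481399-55481648, minus strand: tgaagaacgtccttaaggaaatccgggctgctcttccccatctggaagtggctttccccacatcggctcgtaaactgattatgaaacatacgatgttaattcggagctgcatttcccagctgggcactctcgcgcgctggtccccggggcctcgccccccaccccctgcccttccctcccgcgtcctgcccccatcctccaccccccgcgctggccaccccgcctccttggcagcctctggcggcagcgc

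The DKK1 window held 2 such matches, beginning 95 and 76 bases before the start, and the other 6 windows held 0. Of all 35116 RefSeq windows of this length, 12.0% held at least 1. The AP-1 letters TGAGTCA or TGACTCA, searched on both strands, were in 0 of the 7 windows and in 4.2% of all windows. The LRP5 window was 87.2% G and C with 43 CG pairs, the DKK1 window 62.8% with 18 and the inner WNT5A window 64.4% with 18, beside a median of 58% and 11 over all windows. In GENCODE 29 the DKK1 window lies in exons of the noncoding gene PRKG1-AS1. The windows of WNT5A at chr3:55487307-55487556 and of WNT5B at chr12:1616806-1617055 lie wholly in exons of their own genes. These matches describe letters only.

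A gene was counted as past the size rule when its log2 fold, computed with a prior count of 2, had a size of 1 or more, its fold had an exact 95% interval that left out equality, and it averaged 1 CPM or more across the 3 columns. Of the 10 genes 9 reached that mean, and APCDD1 did not. In KO1 against NC 0 of these 9 genes were past the rule as higher and 6 as lower, where 15.2% of 14522 measured genes were higher and 17.7% lower (32.9% in either direction). Since these contrasts chose the genes, nothing is read from the counts. In KO2 against NC 2 were higher and 2 lower, where 11.0% of measured genes were higher and 10.1% lower (21.1% in either direction). APCDD1L and WNT5A were lower in both knockout columns, where 5.78% of measured genes were lower in both. Of the 9 genes 0 were higher in both, where 6.18% of measured genes were, and 12.0% passed in the same direction. Both comparisons use the same NC column. With scaling by total counts in place of TMM, the median log2 fold of all genes was -0.24 in KO1 against NC, beside -0.02 with TMM, and 33.3% rather than 46.1% of genes past the rule were higher.

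**Figure D1:**
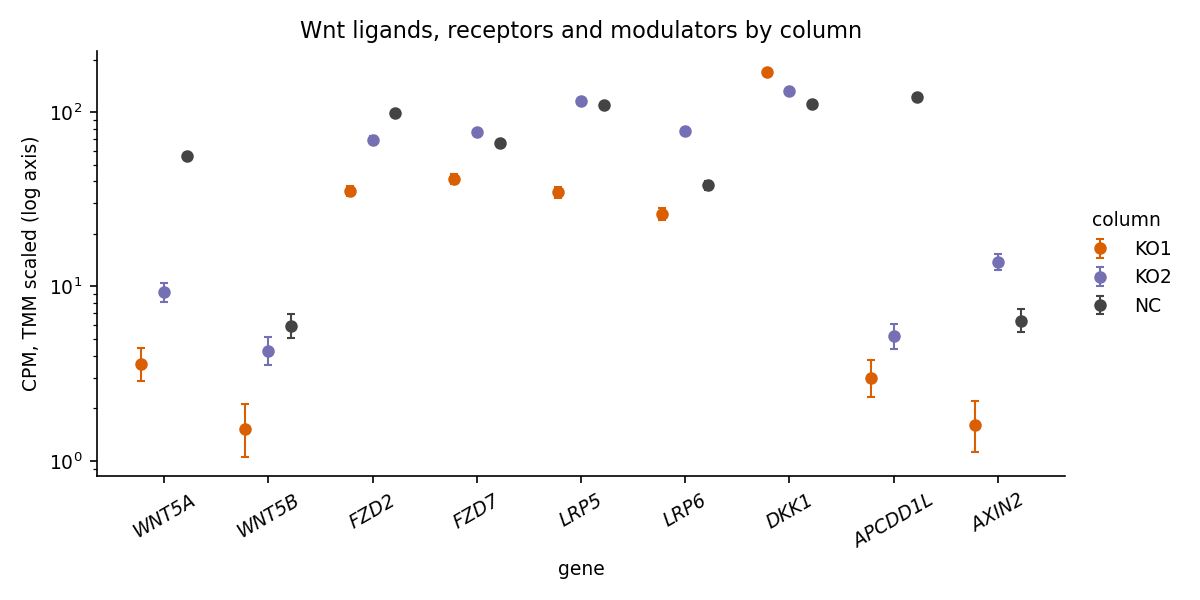
CPM after TMM scaling (log axis) of 9 of the 10 genes in the KO1, KO2 and NC columns, with exact 95% Poisson intervals for counting error. APCDD1 is not drawn because it had 0 counts in NC. APCDD1L and WNT5A lie far below NC in both knockout columns, AXIN2 lies below NC in KO1 and above it in KO2, and DKK1 stays between 111 and 169 CPM.

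WNT5A, the main beta-catenin-independent ligand of the family, was low in both knockout columns. The gene (ENSG00000114251) lies at chr3:55465715-55490539 on the minus strand (hg38, as for all positions that follow). It had 83 counts in KO1, 259 in KO2 and 1556 in NC, or 3.59 CPM in KO1, 9.25 CPM in KO2 and 55.7 CPM in NC. Both knockout columns lay below NC, with KO1 the lowest. In bulk RNA, fewer cells that express a gene and less RNA per cell cannot be told apart. WNT5A was 15.5-fold lower than NC in KO1 (12.4 to 19.6) and 6.03-fold lower in KO2 (5.28 to 6.90), log2 folds of -3.93 and -2.58. WNT5A-AS1, a gene on the opposite strand that overlaps the WNT5A span, had 0 counts in KO1, 0 in KO2 and 26 in NC, and use of strand in the counting is not given in the sources used here.

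WNT5B (ENSG00000111186, chr12:1529891-1647243, plus strand), the paralog of WNT5A, was at 1.51 CPM in KO1, 4.28 CPM in KO2 and 5.95 CPM in NC, from 35, 120 and 166 counts in KO1, KO2 and NC. It was 3.93-fold lower in KO1 than in NC (2.71 to 5.83) and 1.39-fold lower in KO2 (1.09 to 1.77), and only the KO1 value was past the size rule. FBXL14, which overlaps the WNT5B span on the opposite strand, had 108 counts in KO1, 306 in KO2 and 162 in NC. Per length, WNT5A was at 0.453 times the TPM (a level per transcript length and library) of WNT5B in KO1, 0.412 times in KO2 and 1.63 times in NC. The order of these ligands thus differed between the knockout columns and NC by TPM only. By counts and CPM WNT5A was above WNT5B in every column. The WNT5B TPM leaned on transcripts with few counts. ENST00000542408 held 47.2% of it in KO1 from 8 counts, and ENST00000545811 held 49.2% in KO2 from 34 counts. WNT5A and WNT5B together were at 2.31 TPM in KO1, 8.81 TPM in KO2 and 25.9 TPM in NC.

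Of 19 Wnt ligand genes, 11 in KO1, 11 in KO2 and 12 in NC had counts above 0, and 7 reached a mean of 1 CPM. WNT5A carried 3.41% of their summed TPM in KO1, 4.54% in KO2 and 31.5% in NC. WNT7B, a ligand of the canonical branch in several epithelia, carried 52.3% in KO1, 58.9% in KO2 and 25.02% in NC. WNT7B itself was at 11.05 TPM in KO1, 33.35 TPM in KO2 and 12.76 TPM in NC. Its larger share came with a higher TPM than in NC in KO2 but not in KO1. The summed TPM of all Wnt ligands was 21.1 in KO1, 56.6 in KO2 and 51 in NC, so its level in KO2 was close to that in NC while its makeup was not. TPM carries no TMM factor. WNT7B, lower in KO1 than in NC by TPM, was at 34.6 CPM in KO1 and 31.4 CPM in NC. How far the KO1 sum lies below NC thus depends on the measure.

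The Frizzled receptors FZD2 and FZD7 are seven-pass membrane proteins that bind Wnt ligands through a cysteine-rich domain, and each is encoded here by a single transcript. FZD2 (ENSG00000180340, chr17:44557459-44559570, plus strand) was at 35.3 CPM in KO1, 69.5 CPM in KO2 and 98.5 CPM in NC, from 817, 1947 and 2750 counts in KO1, KO2 and NC. It was 2.79-fold lower than NC in KO1 (2.58 to 3.02) and 1.42-fold lower in KO2 (1.34 to 1.503). FZD7 (ENSG00000155760, chr2:202034587-202038445, plus strand), a receptor studied in triple-negative breast cancer, was at 41.4 CPM in KO1, 76.6 CPM in KO2 and 66.3 CPM in NC. It was 1.602-fold lower in KO1 than in NC (1.48 to 1.73) and 1.15-fold higher in KO2 (1.08 to 1.23). FZD2 was past the size rule in KO1 alone and FZD7 in neither column. Over all 10 Frizzled genes, of which 8 had counts in each column, the summed level was 51.1 TPM in KO1, 135 TPM in KO2 and 147 TPM in NC. FZD2 and FZD7 together made up 66.5% of it in KO1, 64.8% in KO2 and 68.9% in NC. TPM carries no TMM factor, and the KO1 log2 fold over NC of FZD7 was -1.04 on summed TPM, beside -0.68 with TMM. How far the KO1 sum lies below NC thus depends on the measure.

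LRP5 and LRP6, the single-pass co-receptors of the canonical branch, were lower in KO1 than in KO2. LRP5 (ENSG00000162337, chr11:68312609-68449275, plus strand) was at 34.6 CPM in KO1, 115 CPM in KO2 and 109 CPM in NC, from 801, 3226 and 3044 counts in KO1, KO2 and NC. It was 3.15-fold lower than NC in KO1 (2.91 to 3.41) and 1.06-fold higher in KO2 (1.005 to 1.11). LRP6 (ENSG00000070018, chr12:12116025-12267012, minus strand) was at 25.95 CPM in KO1, 77.6 CPM in KO2 and 38.0 CPM in NC, from 600, 2175 and 1062 counts in KO1, KO2 and NC. It was 1.47-fold lower than NC in KO1 (1.33 to 1.62) and 2.04-fold higher in KO2 (1.90 to 2.20). LRP5 passed the size rule as lower in KO1 and LRP6 as higher in KO2. Per length, LRP5 was at 5.03 times the TPM of LRP6 in KO1, 3.15 times in KO2 and 5.82 times in NC.

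DKK1, the secreted LRP5 and LRP6 inhibitor, had the highest TPM of the 10 genes in every column. The gene (ENSG00000107984) lies at chr10:52314296-52318042 on the plus strand. It was at 169 CPM in KO1, 132 CPM in KO2 and 111 CPM in NC, from 3897, 3695 and 3109 counts in KO1, KO2 and NC. It was 1.51-fold higher than NC in KO1 (1.44 to 1.59) and 1.18-fold higher in KO2 (1.13 to 1.24), and was past the size rule in neither column. Its log2 fold was higher than that of 74.1% of measured genes in KO1, itself counted, and of 63.6% in KO2.

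APCDD1L showed the largest differences from NC among the 10 genes in both knockout columns. It had 69 counts in KO1, 146 in KO2 and 3399 in NC, or 2.98 CPM in KO1, 5.21 CPM in KO2 and 122 CPM in NC. It was 40.8-fold lower than NC in KO1 (32.2 to 52.6) and 23.4-fold lower in KO2 (19.8 to 27.8), log2 folds of -5.32 and -4.53. It ranked 80 from the lowest of 14522 measured genes by log2 fold in KO1 and 53 from the lowest in KO2. Per length it was at 1.08 TPM in KO1, 2.63 TPM in KO2 and 57.7 TPM in NC, below DKK1 and FZD2 but above the other 7 genes in NC, and below DKK1, FZD2, LRP5, FZD7, LRP6 and WNT5B in both knockout columns. Its paralog APCDD1 (ENSG00000154856, chr18:10454628-10489948, plus strand), a membrane glycoprotein that binds Wnt ligands and LRP5 and inhibits signalling, had 2 counts in KO1, 4 in KO2 and 0 in NC, all from 1 transcript. Counts of 0 to 4 allow no comparison at this depth.

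APCDD1L (ENSG00000198768) lies at chr20:58459101-58515131 on the minus strand and its nearest measured neighbour on each side was also low. APCDD1L-DT, a noncoding gene that starts beside APCDD1L on the opposite strand, was at 0.908 CPM in KO1, 0.821 CPM in KO2 and 7.13 CPM in NC, log2 folds of -2.87 and -3.01. It reached the mean of 1 CPM only through NC. VAPB, a membrane protein of the endoplasmic reticulum and the nearest measured gene on the other side, was at 44.6 CPM in KO1, 42.2 CPM in KO2 and 103 CPM in NC, log2 folds of -1.20 and -1.28. Both passed the size rule in both columns. The next measured genes outward, RAB22A and LINC01711, were past it in neither column, with log2 folds of 0.14 and -0.24 for RAB22A and -0.45 and -0.76 for LINC01711. Chromosome 20 as a whole, with 381 measured genes, had a median log2 fold over NC of -0.43 in KO1 and -0.45 in KO2. Relative to that median APCDD1L was at -4.88 in KO1 and -4.08 in KO2.

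Among 11325 other named genes that averaged 5 CPM or more, the 5 whose pair of log2 folds against NC lay closest to that of APCDD1L were ZNF114, B4GALNT1, TP53I11, EEF1A2 and AKR1C3. The distance, taken over 2 folds from 3 columns, was 0.50 for ZNF114, 0.58 for B4GALNT1, 0.60 for TP53I11, 0.74 for EEF1A2 and 0.75 for AKR1C3. ZNF114, a zinc finger protein, was at 0.822 CPM in KO1, 1.21 CPM in KO2 and 25.9 CPM in NC. B4GALNT1, a ganglioside synthase, was at 0.865 CPM in KO1, 2.78 CPM in KO2 and 51.1 CPM in NC. Of these 5 genes EEF1A2 lies on the same chromosome as APCDD1L. ZNF114, B4GALNT1, TP53I11 and EEF1A2 reached the mean of 5 CPM only through NC, so their place here is partly set by that filter. The 5 genes were picked for their likeness to APCDD1L, so nothing is read from that likeness.

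AXIN2, a scaffold of the destruction complex and a feedback target that beta-catenin induces, differed from NC in opposite directions. The gene (ENSG00000168646) lies at chr17:65528563-65561647 on the minus strand. It had 37 counts in KO1, 387 in KO2 and 178 in NC, or 1.6004 CPM in KO1, 13.8 CPM in KO2 and 6.38 CPM in NC. It was 3.98-fold lower than NC in KO1 (2.78 to 5.84) and 2.17-fold higher in KO2 (1.81 to 2.60), and past the size rule in both. Of all measured genes, 0.806% passed the rule in opposite directions. On summed TPM the KO2 log2 fold over NC was 0.76, below the size limit. A transcript with a retained intron carried 19.3% of AXIN2 TPM in KO1, 0% in KO2 and 32.0% in NC, from 2 counts in KO1, 0 in KO2 and 13 in NC. These were 5.41% of AXIN2 counts in KO1, 0% in KO2 and 7.30% in NC.

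**Figure D2:**
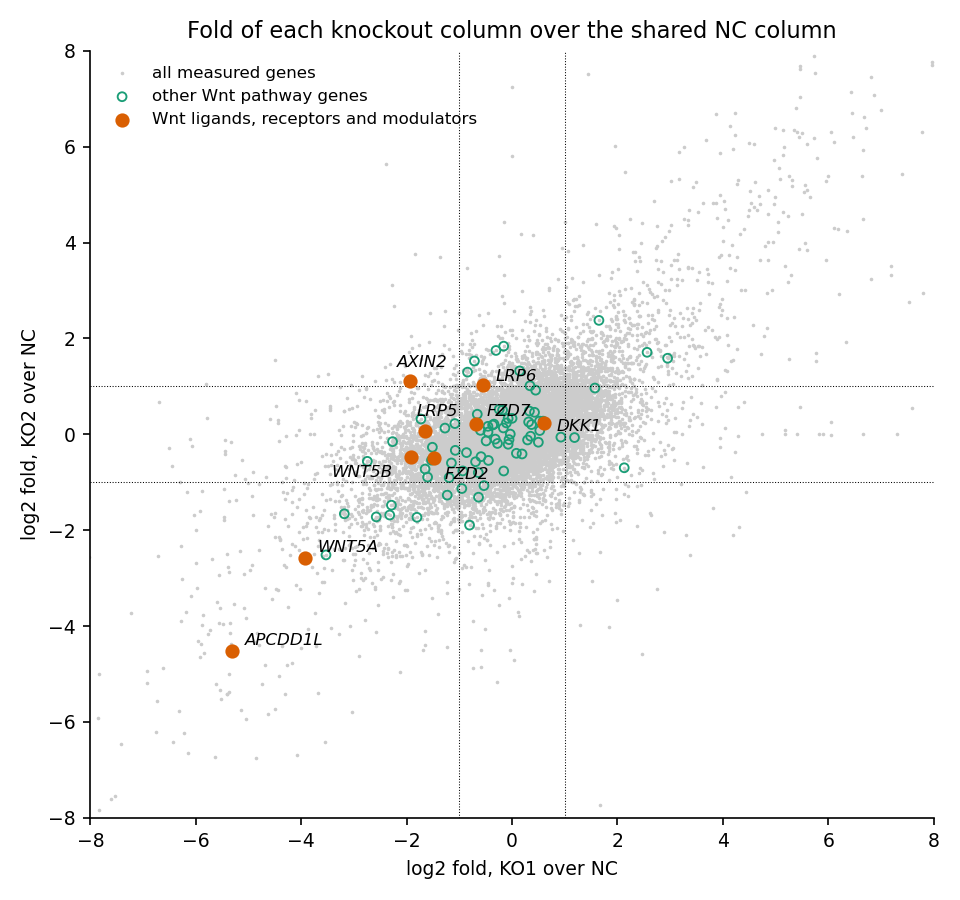
Log2 fold of KO1 over NC (x axis) against log2 fold of KO2 over NC (y axis) for 14522 measured genes (grey), 74 other Wnt pathway genes (open circles) and 9 of the 10 genes (filled, named). Dotted lines mark a log2 fold of 1 in size. The axes run from -8 to 8 and leave out 11 genes, and both axes share the NC column.

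Set directly against each other, the knockout columns differed at several of these genes. In KO2 against KO1, 5 of the 9 genes passed the size rule as higher and 0 as lower, where 15.1% of measured genes were higher and 11.1% lower (26.2% in either direction). AXIN2 was 8.63-fold higher in KO2 than in KO1 (6.15 to 12.4), LRP5 3.32-fold (3.08 to 3.60) and LRP6 2.99-fold (2.73 to 3.28). WNT5B was 2.83-fold higher (1.93 to 4.25) and WNT5A 2.58-fold (2.004 to 3.34). FZD2 at 1.97-fold, FZD7 at 1.85-fold and APCDD1L at 1.75-fold were below the size limit, and DKK1 was 1.28-fold lower in KO2. That direction turned on summed TPM, where DKK1 had a log2 fold of 0.06. With scaling by total counts the number past the rule was 8, where 4184 rather than 3801 of all genes passed. APCDD1L, FZD2 and FZD7 then reached log2 folds of 1.04, 1.23 and 1.14. Of all genes past the rule 74.8% rather than 57.6% were higher. KO1 and KO2 carry the same genotype label, and the share of mitochondrial counts and the ARID1A level also differed between them, as given above. Their part in these differences was not tested.

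Transcript rows show which isoforms carried these levels. Estimated counts divide fragments among overlapping isoforms, so low transcript values are uncertain. Of the 7 genes with several transcripts above 0 counts, 6 had the same leading transcript by TPM in all columns. In WNT5A the transcript ENST00000264634 held 83 of 83 counts in KO1, 258 of 259 in KO2 and 1531 of 1556 in NC. It starts upstream of the window printed above. ENST00000482079, which starts just downstream of that window, had 0 counts in KO1, 0 in KO2 and 7 in NC.

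WNT5B was the exception, with a different leading transcript by TPM in each column. By counts ENST00000543071 led in KO2 and NC, and ENST00000397196 in KO1 by 1 count. ENST00000545811 had 0 counts in KO1, 34 in KO2 and 34 in NC. ENST00000397196 had 14 counts in KO1, 36 in KO2 and 16 in NC, while ENST00000543071 had 13, 45 and 74 counts in KO1, KO2 and NC. The WNT5B level in KO1 thus rested on 3 transcripts with 8 to 14 counts each.

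In LRP5 the full-length transcript ENST00000294304 was at 7.31 TPM in KO1, 35.9 TPM in KO2 and 31.4 TPM in NC. It made up 44.1% of LRP5 TPM in KO1, 74.9% in KO2 and 76.2% in NC, but 87.6% of LRP5 counts in KO1, 96.5% in KO2 and 93.1% in NC. It was 3.66-fold higher in KO2 than in KO1 (3.37 to 3.98). The shorter transcript ENST00000529702 was at 5.81 TPM in KO1, 4.83 TPM in KO2 and 2.84 TPM in NC, from only 64, 48 and 30 counts in KO1, KO2 and NC. ENST00000529993, annotated as subject to nonsense-mediated decay, had 0 counts in KO1, 0 in KO2 and 124 in NC. In AXIN2 the transcript ENST00000307078 had 29 counts in KO1, 322 in KO2 and 155 in NC, and ENST00000618960 had 4, 39 and 0 counts in KO1, KO2 and NC.

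**Figure D3:**
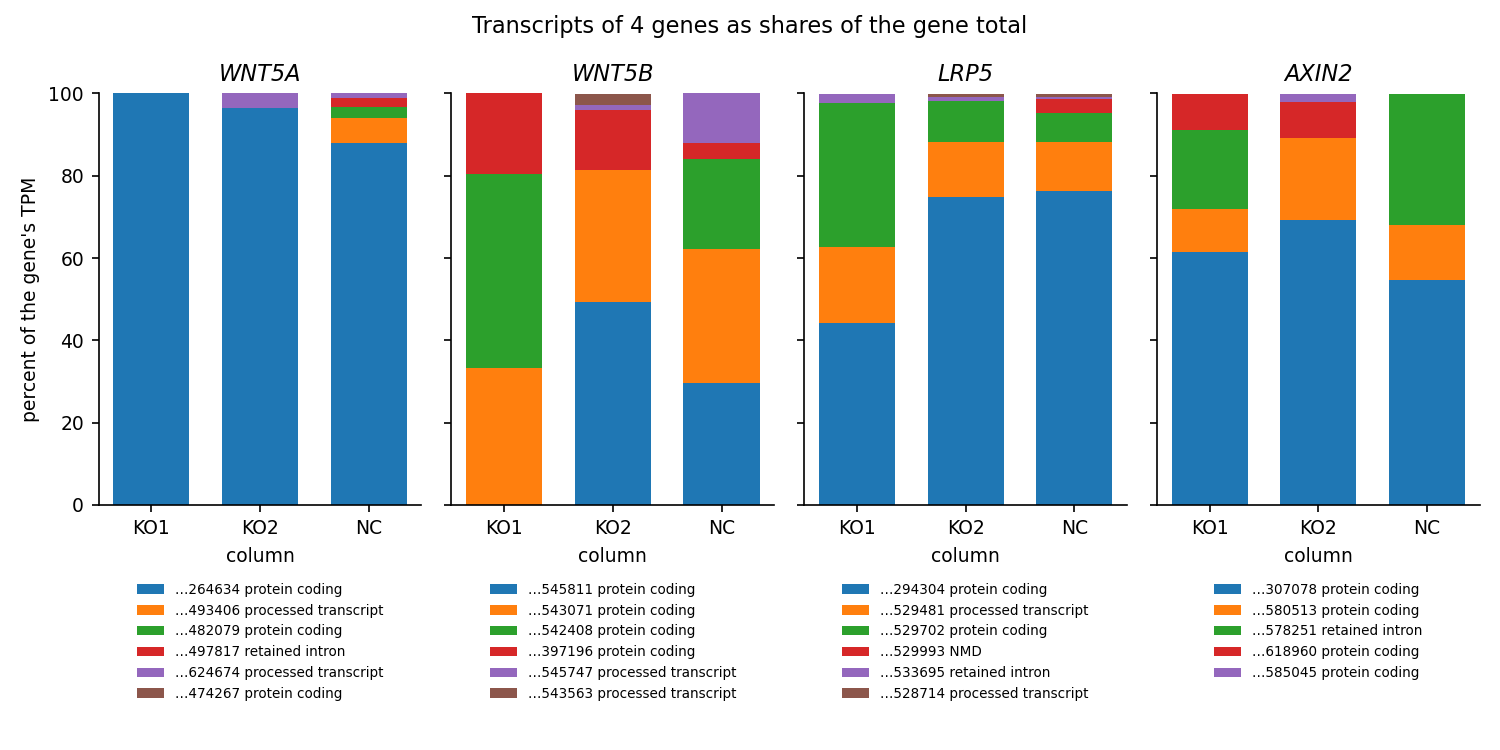
Transcripts of WNT5A, WNT5B, LRP5 and AXIN2 as percent of the gene's TPM in the KO1, KO2 and NC columns, with the last 6 digits of each transcript ID and its GENCODE 29 type. The full-length LRP5 transcript (bottom segment) is 44.1% in KO1, 74.9% in KO2 and 76.2% in NC by TPM, where short transcripts with few counts weigh more than they do by counts.

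The rest of the pathway was described by 8 lists of 114 other genes chosen by role from general knowledge. The lists were made with earlier results of these data known. Of the 114 genes, 74 reached a mean of 1 CPM and 22 had 0 counts in all columns. KO1 against NC gave 6 of the 74 higher and 19 lower, at a median log2 fold of -0.36. KO2 against NC gave 9 higher and 11 lower, at a median of -0.08. Over all measured genes 15.2% were higher and 17.7% lower in KO1, 11.0% higher and 10.1% lower in KO2, at medians of -0.02 and -0.01. Of the 74 genes 3 were higher in both knockout columns, 7 lower in both and 64 neither, beside 6.18% of all measured genes higher and 5.78% lower. The only fit with a residual degree of freedom set both knockout columns together against NC (edgeR quasi-likelihood, 1 residual degree of freedom). Of 80 pathway genes in it, 0 were called at an adjusted p of 0.05, where 0.148% of 18289 genes were called, 0.0547% as higher and 0.0930% as lower. An unadjusted p under 0.05 was found for 8 of the 80, beside 7.70% of all genes, and DESeq2 called 1 of them, KREMEN1, among 306 calls over all genes. The knockout columns are pooled in this fit although they differ, and NC is 1 column, so the call is no support for a change of KREMEN1.

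Inhibitors that act outside the cell or in its membrane had the lowest medians of the 8 lists. Of 18 such genes 6 were measured. KO1 had 0 of them higher and 5 lower than NC, KO2 had 0 higher and 2 lower, with median log2 folds of -1.67 and -0.90. Over all measured genes 17.7% were lower in KO1 and 10.1% in KO2, and nothing particular to these 6 genes is read from the counts. KREMEN1, the membrane receptor with which DKK1 removes LRP6 from the surface, was at 2.21 CPM in KO1, 4.53 CPM in KO2 and 26.3 CPM in NC. TRABD2A, a membrane protease that cleaves and inactivates Wnt ligands, was at 7.05 CPM in KO1, 7.43 CPM in KO2 and 24.8 CPM in NC. Both lay below NC in both knockout columns, and DKK1 itself did not. The secreted inhibitors SFRP2 and WIF1 had 0 counts in every column.

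Among the other receptors, 11 of 15 were measured, of which 1 was higher and 3 lower than NC in the KO1 column, while the KO2 column had 2 higher and 3 lower (medians -0.37 and 0.004). PTK7, a pseudokinase co-receptor of the planar polarity branch, was at 6.96 CPM in KO1, 20.2 CPM in KO2 and 63.8 CPM in NC. FZD4, the receptor for norrin and several Wnts, was at 7.96 CPM in KO1, 12.4 CPM in KO2 and 40.1 CPM in NC. These were the receptors low in both knockout columns beside the ligand WNT5A.

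On the producing side, PORCN, the acyltransferase that attaches the lipid Wnt ligands need for secretion, was at 94.5 CPM in KO1, 52.3 CPM in KO2 and 15.9 CPM in NC. WLS, which carries lipidated ligands to the surface, passed the rule in neither column, and the 4 R-spondins did not reach 1 CPM. Of the other ligands 5 of 17 were measured, with WNT9A higher in both knockout columns, at 3.42 CPM in KO1, 5.71 CPM in KO2 and 1.04 CPM in NC. WNT2B was lower in both, at 0.735 CPM in KO1, 0.714 CPM in KO2 and 1.83 CPM in NC, from 17, 20 and 51 counts. It reached the mean of 1 CPM only through NC, so its place among the lower genes is partly set by that filter.

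Inside the cell, 17 of 17 destruction complex and cytoplasmic genes were measured and 0 passed in both columns (medians -0.07 and 0.08). CTNNB1, which encodes beta-catenin, was at 132 CPM in KO1, 278 CPM in KO2 and 208 CPM in NC, and the kinase CSNK1D at 188 CPM in KO1, 181 CPM in KO2 and 151 CPM in NC. Of 12 measured nuclear effectors 0 were higher and 2 lower in both columns (medians -0.45 and -0.24). The lower ones were DNA-binding partners of beta-catenin, TCF7L1 at 5.71 CPM in KO1, 10.1 CPM in KO2 and 28.2 CPM in NC, and TCF7 at 0.519 CPM in KO1, 0.9996 CPM in KO2 and 3.48 CPM in NC. TCF7 reached the mean of 1 CPM only through NC, so its place among the lower genes is partly set by that filter.

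Of 10 measured canonical targets 1 was higher in both columns and 0 lower (medians -0.12 and 0.08). It was JAG1, a Notch ligand, at 269 CPM in KO1, 104 CPM in KO2 and 34.7 CPM in NC. Of 11 measured planar polarity genes 0 passed in both columns (medians -0.53 and -0.19). Its most abundant genes, the small GTPases RHOA and RAC1, were at 624 and 515 CPM in KO1, 679.6 and 459 CPM in KO2, and 939 and 399 CPM in NC.

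**Figure D4:**
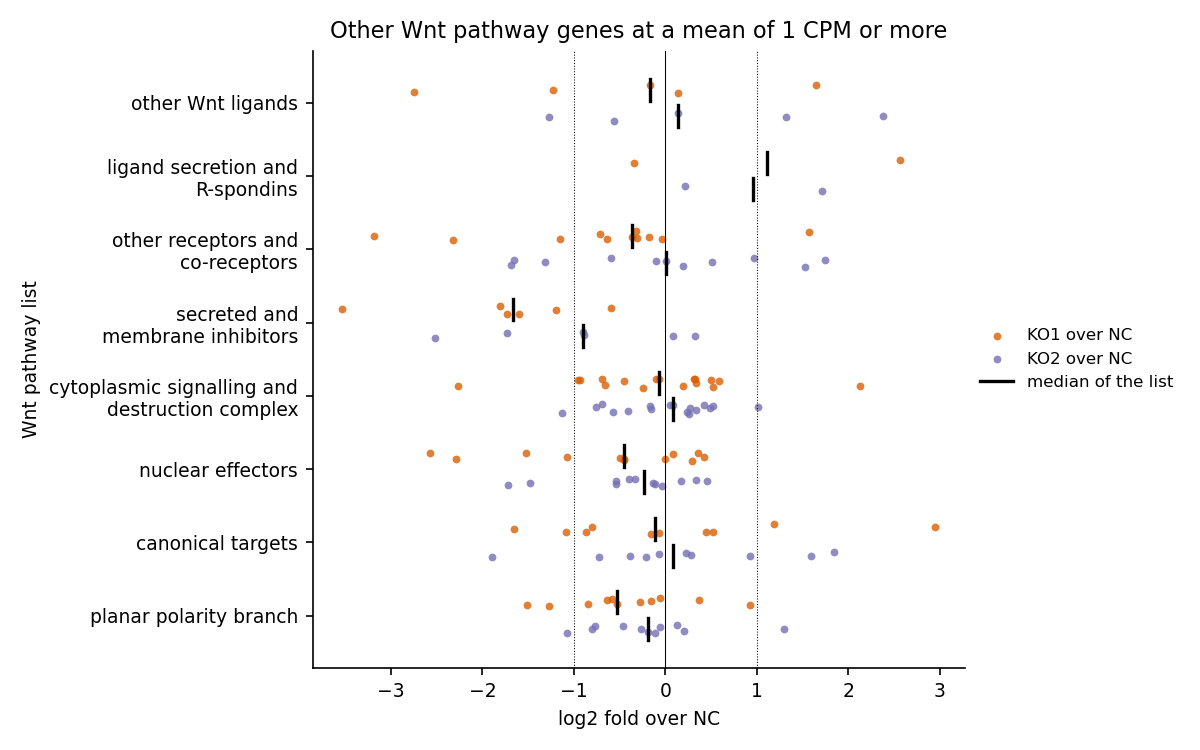
Log2 fold over NC (x axis) of the measured genes in each of 8 Wnt pathway lists, KO1 above KO2 within a list, with the list's median as a black bar and dotted lines at a log2 fold of 1 in size. The medians of the inhibitor list are -1.67 in KO1 and -0.90 in KO2, and those of the other lists lie closer to 0 or above it.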

How the data were processed

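Total RNA libraries were made with a stranded kit after Trizol extraction, per the labels' protocols. Per the file headers, the deposited table gives counts and TPM for 199167 transcripts in 1 column per group. The deposited counts, whole numbers per transcript, were treated as estimated counts because overlapping isoforms each have a value. Its 3 FPKM columns were not used. The submitters' processing notes name CASAVA, Bowtie2, featureCounts and hg38. Their roles are not given in the sources used here.

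Counts were summed per gene ID and scaled by TMM (edgeR 4.0.16, R 4.3.3). The planned size rule was used with exact Clopper-Pearson intervals of the fold, conditional on the summed count. No molecular identifiers are named, so fragments may be copies of 1 molecule. The edgeR quasi-likelihood F test (two-sided, robust, filterByExpr, Benjamini-Hochberg) set KO1 and KO2 as 1 group against NC, and assumes that the lone NC column varies like the knockout columns. DESeq2 1.42.0 was an alternative.

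Members and lists were chosen with earlier results of these data known. Genes of the lists were named where they passed in both columns in 1 direction, up to 4 per list, otherwise as the 2 with the highest mean. For APCDD1L the 5 nearest patterns and 2 neighbours on each side were named. WNT7B, WLS, SFRP2, WIF1 and the genes in the closing observations were named after their values were seen. Symbols were found for 57392 of 58174 gene IDs, and transcript types come from GENCODE 29.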

Additional observations from a re-analysis of the deposited data

Results flagged for a closer look

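At 4 of the 10 genes the knockout columns lay on opposite sides of NC, each with a counting interval that excludes equality. KO1 was below NC and KO2 above it for all 4. No fold limit was set here. The share of all measured genes that meet this looser condition was not counted, so nothing is read from the count. By the size rule, 0.806% of measured genes passed in opposite directions. The log2 fold of KO2 over KO1 was 3.05 for AXIN2, 1.73 for LRP5, 1.58 for LRP6 and 0.89 for FZD7. Of these AXIN2 alone passed the size rule in both columns. For LRP5 the KO2 side was small, at 1.06-fold above NC (1.005 to 1.11). Its log2 fold in KO2 over NC was 0.08 with TMM and 0.05 with DESeq2 size factors. The place of LRP5 among the 4 genes thus rests on the scaling. There is 1 column per group, so the difference was not tested against replicate spread. Scaling by total counts raised the log2 fold of KO2 over KO1 for FZD7 to 1.14.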

How the results depend on the processing

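Of 162 member folds recomputed under 6 alternatives, 0 that had passed the size rule changed sign and 129 stayed within their counting interval. The 1 sign change was DKK1 in KO2 against KO1, from a log2 fold of -0.35 to 0.06 on summed TPM. On summed TPM the KO1 log2 folds over NC of FZD7 and LRP6 were -1.04 and -1.08. Members past the rule in KO2 against KO1 numbered 8 with total counts, where 4184 of all genes passed. Without the filter on low counts 5180 genes passed in KO2 against NC and 5716 in KO2 against KO1. The edgeR test called 27 genes, 15 with DESeq2 size factors, 493 without the filter and 48 without robust estimation (chosen after seeing the data), and DESeq2 called 306. The cause was not tested. No paired analysis was possible because the table has 1 column per group and the columns carry no replicate number, and no replicate could be left out for the same reason. With 0 to 4 counts APCDD1 is below what this depth can compare.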

Other observations

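Several pathway genes were past the size rule as higher in KO2 alone, CSNK1E and the genes given below. FZD8, APC2, BAMBI and CELSR1 were past it as lower in KO2 alone. In KO2 against NC 9 of the 74 measured pathway genes were higher and 11 lower, beside 11.0% and 10.1% of all measured genes. The share of all genes past the rule in KO2 alone was not counted, so nothing is read from these genes as a group. FZD1, a Frizzled of the canonical branch, was at 21.3 CPM in KO1, 88.7 CPM in KO2 and 26.3 CPM in NC. ROR1, a receptor for WNT5A, was at 12.3 CPM in KO1, 58.4 CPM in KO2 and 20.2 CPM in NC. WNT7B was at 34.6 CPM in KO1, 78.6 CPM in KO2 and 31.4 CPM in NC. The planar polarity cadherin CELSR2 was at 6.75 CPM in KO1, 30.02 CPM in KO2 and 12.2 CPM in NC, and the ephrin receptor EPHB3 at 3.07 CPM in KO1, 12.5 CPM in KO2 and 3.44 CPM in NC.

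APC, the tumour suppressor of the destruction complex, was past the rule as higher in KO1 alone, at 22.5 CPM in KO1, 3.11 CPM in KO2 and 5.09 CPM in NC. Its summed TPM was 3.23 in KO1, 2.07 in KO2 and 3.06 in NC, so the difference in counts was not seen per length. SP5, a canonical target, was lower in KO1 alone, at 4.63 CPM in KO1, 8.85 CPM in KO2 and 14.7 CPM in NC. MYC, another, was higher in KO1 alone, at 11.3 CPM in KO1, 4.71 CPM in KO2 and 4.94 CPM in NC. Its summed TPM was 7.43 in KO1, 5.92 in KO2 and 6.6 in NC. Of the 10 measured canonical targets 2 were higher and 2 lower in KO1, beside 15.2% and 17.7% of all measured genes.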
